A study of Mus musculus with 2 samples.

Results

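The BCL2 family decides whether a cell releases the contents of its mitochondria and dies. Here 10 mouse genes of this family were followed, taken by gene name from a count table of 50559 genes. They are the survival genes Bcl2, Bcl2l1 and Mcl1, the effectors Bax and Bak1, and the BH3-only genes Bcl2l11, Bbc3, Pmaip1, Bid and Bad, and all 10 names were found. RNA came from live GFP-positive keratinocytes sorted from dorsal skin at postnatal day 21, when hair follicles rest in telogen. The mice had the genotype Polr2b.fl.fl.GFP; K14Cre, in which Cre is driven by the keratin 14 promoter of basal epidermis and follicle lineages, and no group without these alleles was measured. The series holds 1 group of 2 replicate libraries, made to set steady-state RNA beside nascent RNA. It therefore allows levels, their spread and a comparison of the libraries, but no comparison of conditions.

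Survival proteins of this family bind and restrain both the effectors and the BH3-only proteins. BH3-only proteins act as sensors of damage, lost attachment or missing growth factors, and occupy the groove of the survival proteins or activate the effectors directly. Freed Bax and Bak then form pores in the outer mitochondrial membrane, cytochrome c leaves, and caspases are activated. In skin this pathway is known from the regression of the hair follicle in catagen, which proceeds by apoptosis, and from mice lacking Bcl2, whose coat turns grey as pigment cells are lost.

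All roles share the BH3 helix, a short element that the choice of members by name did not use. The coding stretch around it is printed to show what joins genes whose RNA levels differ widely. Each line has 36 bases, 5′ to 3′, from GENCODE M21 transcripts on GRCm38. Capitals mark the codon of the conserved leucine and, after a spacer, the codon pair that ends in the conserved aspartate.
Bcl2: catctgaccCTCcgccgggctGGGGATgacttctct
Bcl2l1: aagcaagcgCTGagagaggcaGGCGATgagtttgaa
Mcl1: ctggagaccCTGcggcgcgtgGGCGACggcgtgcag
Bax: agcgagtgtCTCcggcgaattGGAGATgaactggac
Bak1: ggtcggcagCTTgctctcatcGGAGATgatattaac
Bcl2l11: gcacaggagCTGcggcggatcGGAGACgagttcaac
Bbc3: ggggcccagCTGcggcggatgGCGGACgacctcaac
Bid: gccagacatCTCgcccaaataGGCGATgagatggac
Bad: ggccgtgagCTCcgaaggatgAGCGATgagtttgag

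For each of these 9 genes the longest complete coding sequence with the codon pattern was taken. Its presence was thus set by the search, and it occurred exactly 1 time in each sequence. The pattern allowed only glycine, alanine or serine before the aspartate. That codon encodes glycine in 7 of the sequences, and the exceptions are Bbc3, with an alanine codon, and Bad, with a serine codon. The leucine is codon 94 of 236 in Bcl2, 90 of 233 in Bcl2l1 and 194 of 331 in Mcl1. The genes lie on chromosome 1 (Bcl2), 2 (Bcl2l1 and Bcl2l11), 3 (Mcl1), 6 (Bid), 7 (Bax and Bbc3), 17 (Bak1) and 19 (Bad). The pattern is no mark of the family by itself, since 8.70% of 21581 mouse coding genes hold it somewhere in their longest complete coding sequence. That wider search took 1 sequence per gene whether or not it held the pattern, unlike the search of the members.

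Replicate 1 held 36692204 counts and replicate 2 held 33489967 counts. CPM is the count scaled by the library total. A gene with no count could lie as high as 0.0818 CPM in replicate 1 and 0.0896 CPM in replicate 2. The libraries stood apart in sex-linked RNA, with 112587 Xist counts in replicate 1 and 11 in replicate 2, while Uty had 0 and 2394 counts. The labels name no animals, but by these counts the libraries did not come from the same animal, so sex and library cannot be told apart. Polr2b, the floxed gene, had 88.3 CPM in replicate 1 and 78.4 CPM in replicate 2. The keratinocyte label was met by 6 of 6 basal markers at 10 CPM or more in both libraries, yet 6 of 6 fibroblast and 7 of 7 macrophage markers passed it too. In such bulk RNA, fewer cells of a type and less RNA per cell cannot be told apart.

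All 10 members were measured above 1 CPM in both libraries, and 8 were at 10 CPM or more in both. The exceptions were the BH3-only genes Bad and Bid. Bad reached 9.70 CPM in replicate 1 but 11.5 CPM in replicate 2, whereas Bid reached 10.6 CPM in replicate 1 but 9.20 CPM in replicate 2. Together the members took 0.0918% of the counts in replicate 1 and 0.0919% in replicate 2. Mcl1 alone supplied 74.3% of these member counts in replicate 1 and 74.5% in replicate 2. Levels of different genes are set side by side below as TPM, in which each count is divided by the deposited gene length before scaling.

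Mcl1 encodes a survival protein that turns over quickly. It had 25035 counts in replicate 1 and 22940 in replicate 2, or 194 TPM in replicate 1 and 195 TPM in replicate 2. Its mean of 194 ± 0.795 TPM (SD, n = 2) lay at the 96.3 percentile of 15833 detected genes, meaning those that reached 1 CPM in each library. No other member reached the level of Mcl1 in either library.

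Bcl2l1 encodes BCL-XL and, by alternative splicing, the shorter death-promoting BCL-XS, which gene counts do not separate. It had 1665 counts in replicate 1 and 1185 in replicate 2, or 15.5 and 12.1 TPM. Its mean of 13.8 ± 2.40 TPM lay at the 51.4 percentile of detected genes, close to their median of 12.96 TPM. Bcl2, the founding member, had 1073 counts in replicate 1 and 634 in replicate 2, or 9.86 and 6.39 TPM. With 8.13 ± 2.45 TPM it had the lowest level of the 10 genes. Mcl1 stood above Bcl2l1 by 3.83 ± 0.26 (log2 of the TPM ratio, SD, n = 2) or 14.2-fold, and above Bcl2 by 4.61 ± 0.45 or 24.5-fold.

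By mean TPM the effector Bax came next after Mcl1, and the effector Bak1 came after the BH3-only gene Pmaip1. Bax, which moves from the cytosol to mitochondria when activated, had 764 counts in replicate 1 and 818 in replicate 2. That was 54.9 TPM in replicate 1 and 64.5 TPM in replicate 2, with a mean of 59.7 ± 6.80 TPM. Bak1 encodes the effector that resides on mitochondria, and had 959 counts in replicate 1 and 967 in replicate 2, or 32.0 and 35.4 TPM. Bax exceeded Bak1 by 0.82 ± 0.06 (log2 of the TPM ratio), or 1.77-fold, and their ranges over the libraries did not overlap. The gene counts of Bax may include reads of Gm45808, whose exons overlap those of Bax on the same strand in GENCODE M21. Gm45808 is absent from the count table under that name.

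Among the BH3-only genes, Pmaip1 had the highest mean TPM. Pmaip1 encodes NOXA, a p53 target whose product binds MCL1 selectively. It had 1179 counts in replicate 1 and 1563 in replicate 2, or 30.0 and 43.7 TPM. Its range over the libraries overlapped that of Bak1, which had a mean of 33.7 ± 2.42 TPM against 36.8 ± 9.65 TPM for Pmaip1. Bad, whose product is held inactive by phosphorylation, had 356 counts in replicate 1 and 386 in replicate 2, or 15.8 and 18.8 TPM. Bbc3 encodes PUMA, a p53-induced protein that binds all the survival proteins, and had 664 counts in replicate 1 and 901 in replicate 2, or 11.2 and 16.7 TPM.

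The remaining pair of BH3-only genes were near the bottom of the order. Bid, whose protein is cut by caspase 8 and so links death receptors to mitochondria, had 389 counts in replicate 1 and 308 in replicate 2, or 10.9 and 9.51 TPM. Bcl2l11 encodes BIM, the sensor of growth factor and matrix loss, and had 1610 counts in replicate 1 and 1085 in replicate 2, or 10.9 and 8.06 TPM. Both lay below the median TPM of detected genes in both libraries. For Bcl2l11 this depends on its deposited length of 9973 bases, since by mean CPM it lay at the 66.2 percentile of detected genes. Bid lay at the 37.1 percentile by mean CPM.

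**Figure D1:**
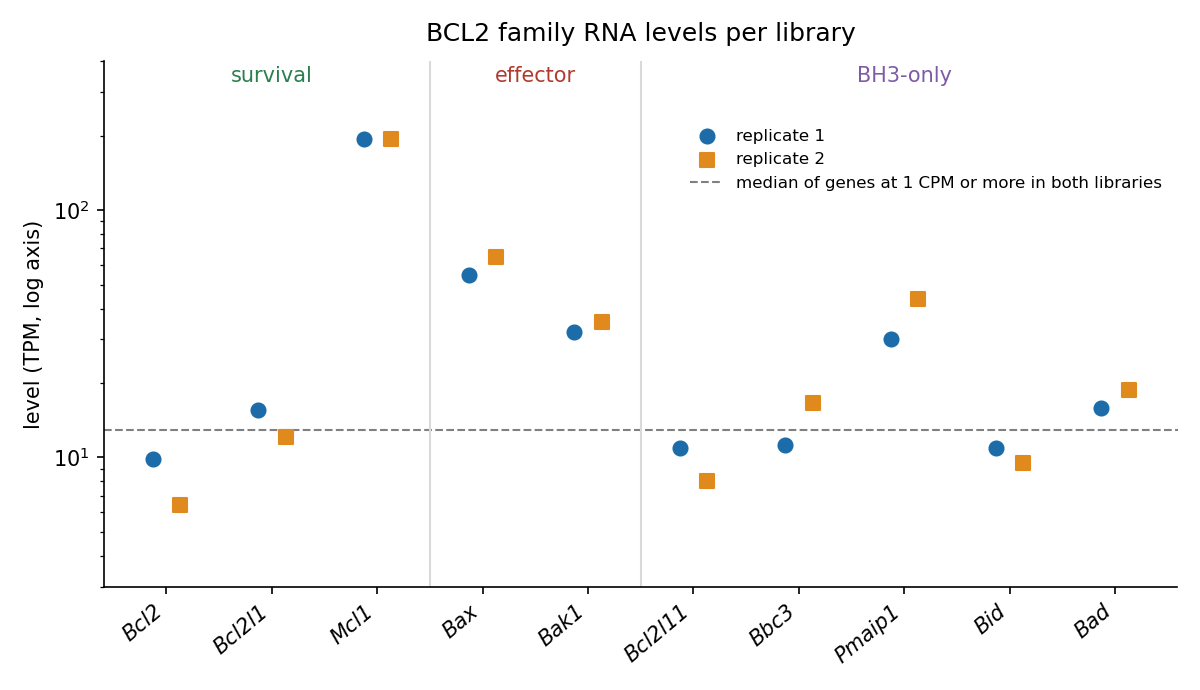
Level of each member in TPM on a log axis, with replicate 1 as circles and replicate 2 as squares, grouped by role. Mcl1 stands at 194 and 195 TPM, and Bcl2, Bcl2l11 and Bid lie below the dashed median of 12.96 TPM in both libraries.

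By mean TPM the order was Mcl1, Bax, Pmaip1, Bak1, Bad, Bbc3, Bcl2l1, Bid, Bcl2l11 and Bcl2. Of the 9 neighbouring pairs in this order, 5 had ranges over the libraries that overlapped. These were Pmaip1 with Bak1, Bad with Bbc3, Bbc3 with Bcl2l1, Bid with Bcl2l11, and Bcl2l11 with Bcl2. The step from Mcl1 to Bax was 3.26-fold between means, and that from Bak1 to Bad was 1.95-fold. Likeness of pattern was not ranked, since over 2 libraries a correlation takes no intermediate value.

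The order depends on gene length for some members. The deposited length of Mcl1 is 8725 bases, against 3418 for its longest coding transcript in GENCODE M21, and that of Bcl2l1 is 7261 against 2568 bases. Per kilobase of those transcripts, Mcl1 had 199.6 CPM in replicate 1 and 200.4 CPM in replicate 2, while Bax stayed second at a mean of 20.6 CPM per kilobase. Bcl2l1 moved to the third place at 15.7 CPM per kilobase, with Bcl2 still last at 3.35. Bcl2l11 rose from place 9 to 7 with these lengths, while Bad fell from 5 to 8 and Bak1 from 4 to 6. Mcl1 exceeded Bcl2 61.1-fold with these lengths, against 24.5-fold with the deposited ones, and Bcl2l1 12.8-fold against 14.2-fold. Pmaip1 exceeded Bbc3 2.65-fold with the deposited lengths but 1.17-fold with those of GENCODE. Mcl1 then exceeded Bax 9.76-fold, rather than 3.27-fold with the deposited lengths, so the rank of Mcl1 kept on both scales but not its distance to the next gene.

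Summed by role, the survival genes had 219 TPM in replicate 1 and 213 TPM in replicate 2. The BH3-only genes had 78.8 TPM in replicate 1 and 96.7 TPM in replicate 2. The effectors had 86.9 TPM in replicate 1 and 99.9 TPM in replicate 2. Survival RNA stood above effector RNA by 1.21 ± 0.17 (log2 of summed TPM, SD, n = 2), or 2.32-fold. Without Mcl1 this order turned, since Bcl2 and Bcl2l1 together had 25.3 TPM in replicate 1 and 18.5 TPM in replicate 2, 4.30-fold below the effectors. This turn depends on length, since Bcl2 and Bcl2l1 were 1.69-fold below the effectors with GENCODE lengths (log2 -0.76) and 1.27-fold above them in CPM (log2 0.35). With the transcript lengths from GENCODE the survival excess was 2.77 on the log2 scale, or 6.84-fold. BH3-only and effector sums were close, at -0.09 ± 0.07 for BH3-only over effectors. That small difference changed sign to 0.51 with the GENCODE lengths. These are sums of RNA, and protein was not measured.

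**Figure D2:**
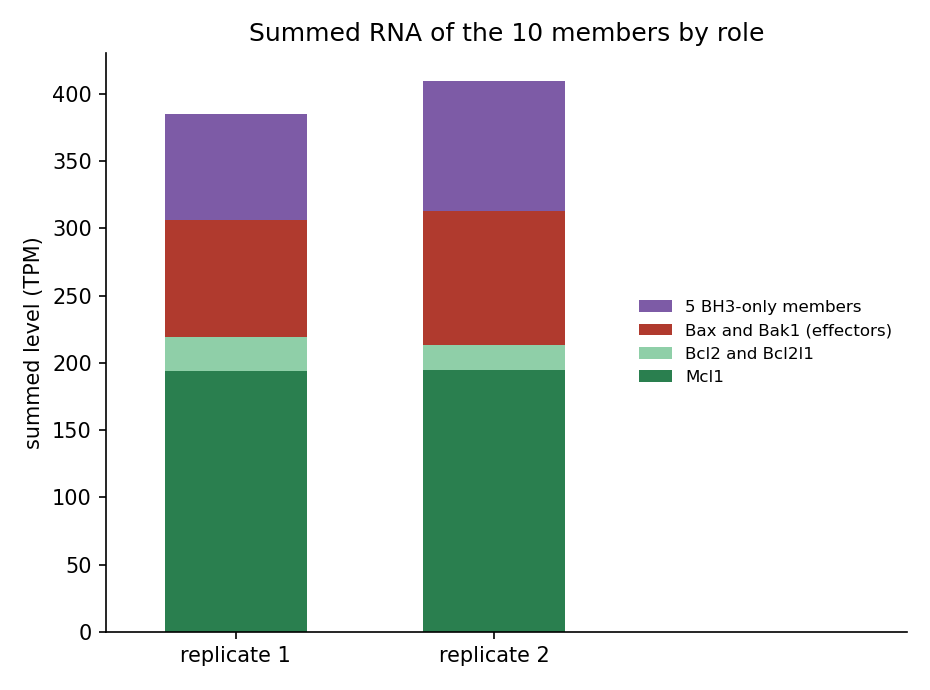
Summed TPM of the members in each library, stacked by role, with Mcl1 drawn apart from the other survival genes. Mcl1 makes up 194 of 385 TPM in replicate 1 and 195 of 410.0 TPM in replicate 2.

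The libraries were next compared with each other, gene by gene, by the exact two-sided binomial test on the counts against the ratio of library totals, with Benjamini-Hochberg adjustment over 23690 genes. This test measures counting error between these libraries only. It finds smaller differences in genes with more counts, and the tested genes reached down to 10 counts in total. The member with the fewest counts, Bid, had 389 in replicate 1 and 308 in replicate 2. Shares of members and of all tested genes are therefore not alike in depth. By this test 7 of 10 members differed at an adjusted p under 0.05, where 44.1% of all tested genes did. Of these, 3 were higher in replicate 1 and 4 were lower, against 27.2% and 16.9% of all tested genes. With TMM scaling 3 were higher and 6 lower, and without Rn7sk and the mitochondrial genes in the totals 3 were higher and 3 lower. The shares of all tested genes given here hold for scaling to library totals and were not counted for these other scalings. TMM scaling moved the median log2 ratio of all tested genes as well, from 0.07 to 0.006. Scaled to library totals, the median log2 ratio of the members was -0.07, beside 0.07 over all tested genes.

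Bcl2, Bcl2l11 and Bcl2l1 were higher in replicate 1. Bcl2 had 29.2 CPM in replicate 1 and 18.9 CPM in replicate 2. Its log2 ratio of scaled counts, replicate 1 over replicate 2, was 0.63 (95% Clopper-Pearson interval 0.48 to 0.77, adjusted p = 1.79e-17 by the exact binomial test). Bcl2l11 had 43.9 CPM in replicate 1 and 32.4 CPM in replicate 2, a log2 ratio of 0.44 (0.33 to 0.55, adjusted p = 8.76e-14). For Bcl2l1 the levels were 45.4 CPM in replicate 1 and 35.4 CPM in replicate 2, with a log2 ratio of 0.36 (0.25 to 0.47, adjusted p = 4.17e-10). The genes that were higher in replicate 1 thus include a survival pair and a BH3-only gene.

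Pmaip1, Bbc3, Bax and Bad were lower in replicate 1. Pmaip1 had 32.1 CPM in replicate 1 and 46.7 CPM in replicate 2, a log2 ratio of -0.54 (-0.65 to -0.43, adjusted p = 4.00e-21). For Bbc3 the levels were 18.1 CPM in replicate 1 and 26.9 CPM in replicate 2, with a log2 ratio of -0.57 (-0.72 to -0.43, adjusted p = 7.13e-14). The differences of Bax, with a log2 ratio of -0.23 (adjusted p = 0.00477), and of Bad, at -0.25 (adjusted p = 0.0471), were smaller. All 4 genes promote death, but so do most of the 10 members, which include 2 effectors and 5 BH3-only genes. Bcl2l11, higher in replicate 1, promotes death too. Bad lost its call when Rn7sk and the mitochondrial genes were left out of the totals (adjusted p = 0.0554).

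Mcl1, Bak1 and Bid did not pass the binomial test. Mcl1 had 682 CPM in replicate 1 and 685 CPM in replicate 2, with an interval on the log2 ratio from -0.03 to 0.02. Bak1 had 26.1 CPM in replicate 1 and 28.9 CPM in replicate 2 (interval -0.27 to -0.01, adjusted p = 0.0656). The interval of Bid ran from -0.01 to 0.43 (adjusted p = 0.122). TMM scaling moved the members' ratios by -0.07 on average, and Mcl1 (log2 ratio -0.08, adjusted p = 3.38e-09) and Bak1 (-0.22, adjusted p = 0.00284) then passed as lower in replicate 1.

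With 1 library on each side, the exact test of edgeR takes its dispersion from the same difference that it tests. With tagwise dispersion it called 0 of 10 members and 0% of all 23690 tested genes, and even Xist had an adjusted p of 1, so this count says nothing about the members. Unadjusted, 351 genes or 1.48% had an edgeR p under 0.05, among them 0 members, whose p ran from 0.132 for Pmaip1 to 0.797 for Mcl1. At so small a share, 0 of 10 members carries no information. With 1 common dispersion for all genes, a coefficient of variation of 22.7%, the test called 66 genes or 0.279%, and 0 members. Scaled to library totals, Bcl2 had the largest absolute log2 ratio of the members at 0.61 (of CPM + 0.5), and 10.7% of the detected genes differed by more. With TMM factors Bbc3, at -0.63, and Pmaip1, at -0.61, came before Bcl2, at 0.54.

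**Figure D3:**
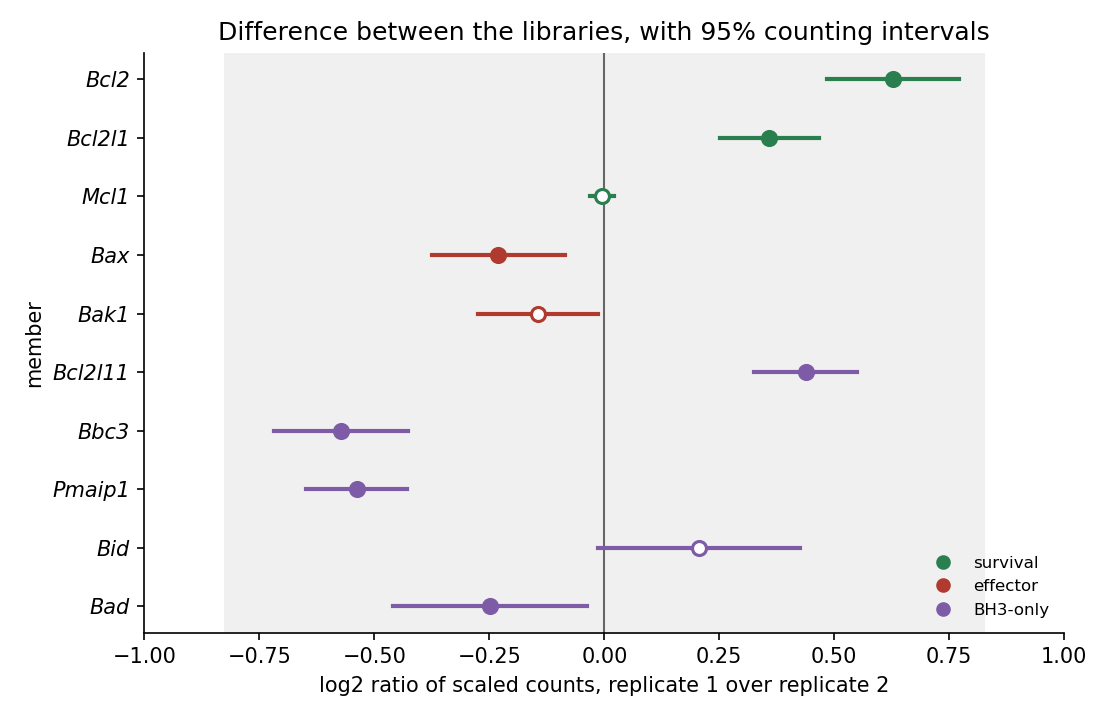
Log2 ratio of scaled counts, replicate 1 over replicate 2, for each member, with 95% Clopper-Pearson intervals that cover counting error only. Filled points passed the exact binomial test, open points did not, and the grey band spans -0.82 to 0.82, which held 95% of detected genes. Every member lies inside the band.

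The cell markers differed between the libraries as well. Their calls are by the binomial test, which called 27.2% of all tested genes higher and 16.9% lower in replicate 1. Fibroblast markers summed to 1.30% of counts in replicate 1 and 0.643% in replicate 2, with 6 of 6 higher in replicate 1. Endothelial markers, 3 of 4 of them higher in replicate 1, summed to 0.00527% and 0.00339% of counts. In the other direction, 5 of 5 spinous markers were lower in replicate 1, at 0.312% of counts there and 0.623% in replicate 2, as were 6 of 6 basal markers, at 0.980% and 1.40%. Macrophage markers stood at 0.731% in replicate 1 and 0.799% in replicate 2, with 2 higher and 4 lower in replicate 1 out of 7. The T cell genes Trac and Trdc had no count in either library, and the highest T cell marker, Cd3e, had 29 counts in replicate 1 and 32 in replicate 2. Of the neutrophil markers, Ly6g had no count and S100a8 had 8 and 0 counts, while Csf3r had 31.8 CPM in replicate 1 and 28.0 CPM in replicate 2. By mean TPM the basal list ran from Krt5 at 5763 and Krt14 at 3806 to Itgb4 at 144, and the spinous list from Krt1 at 1243 and Krtdap at 758 to Sbsn at 74.9. The fibroblast list ran from Col1a1 at 1716 and Col3a1 at 1494 to Pdgfra at 21.4 TPM. Macrophage markers ran from Lyz2 at 3994 and C1qb at 2719 to Csf1r at 609.8 TPM, and endothelial markers from Cdh5 at 12.5 and Pecam1 at 10.4 to Emcn at 2.33 TPM. Cd3e had 1.43 TPM, the next T cell marker Cd3g had 0.326 TPM, and Csf3r had 15.5 TPM beside 0.689 TPM for S100a8. The part of these markers in the differences of the members was not tested.

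Other genes of the family were measured beside the members, and 12 of these 17 passed 1 CPM in both libraries. Bok, a BAX-like gene, had 1914 counts in replicate 1 and 1979 in replicate 2, and at 88.5 ± 7.91 TPM stood above Bax by 0.57 ± 0.04 (log2 of the TPM ratio). The mitophagy receptors Bnip3l and Bnip3 had 70.0 ± 0.819 and 49.5 ± 13.2 TPM. The autophagy gene Becn1 had 36.5 ± 3.06 TPM and the multidomain gene Bcl2l13 had 35.4 ± 3.08 TPM. Exons of Bcl2l13 overlap those of Bid on the opposite strand in GENCODE M21, and whether the counting used strand is unknown. Reads of such partners may therefore be shared, and Bcl2l13 had 99.4 CPM where Bid had 9.90 CPM. The same kind of overlap holds for Bak1 with Ggnbp1, at 1.97 TPM, and for Bad with Gpr137, at 7.87 TPM. It also holds for Bcl2 with the antisense gene D630008O14Rik, which is absent from the count table under that name.

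The survival gene Bcl2l2, which encodes BCL-W, had 12.2 ± 0.759 TPM, near Bcl2l1. The BH3-only gene Bmf had 12.5 ± 0.494 TPM, and Bcl2l12 had 13.3 ± 4.02 TPM. Bcl2a1b, Bcl2a1d and Bcl2a1a had 8.12, 3.93 and 1.11 TPM, but they are near-identical copies and their separate counts are uncertain. Bcl2l14 and Bcl2l15 had 2.86 and 0.855 TPM, Bik had 0.583 TPM and Bcl2l10 had 0.390 TPM. Hrk, a BH3-only gene known from neurons, had 5 counts in replicate 1 and 0 in replicate 2, and Bcl2a1c had 0 and 1 count. By the binomial test 3 of the 15 tested genes were higher and 5 lower in replicate 1, against 27.2% and 16.9% of all tested genes. The higher ones were Bcl2a1b, Bcl2l10 and Bnip3, and the lower ones were Bok, Bcl2l12, Bcl2l13, Bcl2l14 and Becn1.

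Upstream and downstream of the members, the machinery was measured throughout. All 9 apoptosome and caspase genes passed 1 CPM in both libraries, led by the nuclease inhibitor Dffa at 51.2 ± 13.9 TPM and Apaf1, the scaffold of the apoptosome, at 37.5 ± 0.0504 TPM, with the nuclease Dffb lowest at 2.29 TPM. The death receptor genes that feed Bid ranged from the adaptor Fadd at 8.05 TPM to the TNF receptor Tnfrsf1a at 370 ± 14.1 TPM, with Mtch2, the mitochondrial receptor of cleaved BID, at 56.0 ± 5.07 TPM. Inhibitor of apoptosis genes were led by Birc3 at 112 ± 4.40 TPM and Birc6 at 56.7 ± 3.40 TPM, with Xiap lowest at 8.29 TPM. The place of Xiap depends on its deposited length of 27375 bases, since by CPM it stood at 91.5, above Htra2 of the same list at 9.15. The outer membrane channel genes Vdac1, Vdac3 and Vdac2 had 213, 86.7 and 86.0 TPM, and Vdac2 is known to hold BAK at mitochondria. The median of the members was 15.6 TPM, beside 28.8 TPM for the apoptosome list and 36.6 TPM for the death receptor list. It was 86.7 TPM for the channel genes, 15.4 TPM for the inhibitors of apoptosis with their antagonists, and 8.12 TPM for the other family genes.

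Genes known to control the members were present too. On the p53 axis, the cell cycle inhibitor Cdkn1a had 392 ± 114 TPM, the epidermal factor Trp63 had 227 ± 5.41 TPM and Tigar was lowest at 3.58 TPM. Of these 11 genes, 7 were lower in replicate 1 by the binomial test and 1 was higher, against 16.9% and 27.2% of all tested genes. Genes that act on MCL1 protein stability included the ligase Huwe1 at 98.6 ± 1.88 TPM, the kinase Gsk3b at 69.7 ± 0.421 TPM and, lowest, Trim17 at 2.56 TPM. Among the factors that induce BH3-only genes, Atf4 had 373 ± 2.63 TPM, Foxo3 had 97.9 ± 11.3 TPM and Trib3 had 2.73 TPM. Sfn, the epidermal 14-3-3 sigma, led the list of BAD kinases and their 14-3-3 partners at 2295 ± 1042 TPM, followed by Ywhaz at 355 ± 39.2 TPM, with Pim2 lowest at 6.47 TPM. Of the 14 genes in that list, 9 were lower and 2 higher in replicate 1 by the binomial test.

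**Figure D4:**
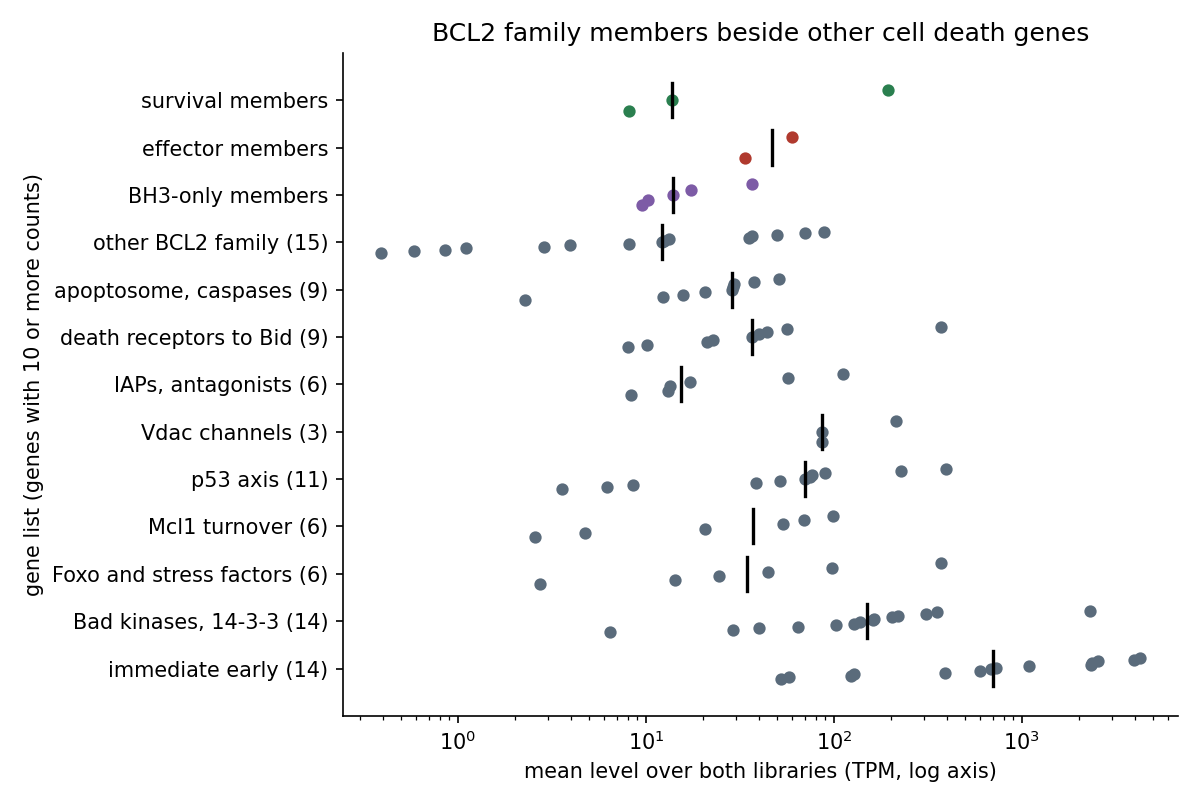
Mean TPM over both libraries on a log axis for the members by role and for genes of 10 other lists with 10 or more counts in total; each point is a gene and each bar a list median. Mcl1 at 194 TPM stands apart within the survival genes, while the other 9 members lie between 8.13 and 59.7 TPM.

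Immediate early genes, which respond within minutes to stress, were abundant in these enzyme-released cells, with Fos at 4226 ± 4.34 TPM, Egr1 at 3969 ± 359 TPM and Egr2 lowest at 52.2 TPM. Of the 14 genes, 0 were higher and 12 lower in replicate 1 by the binomial test, against 27.2% and 16.9% of all tested genes. Their median log2 ratio was -0.28, beside 0.07 for all tested genes. Fos itself had 3594 CPM in replicate 1 and 3593 CPM in replicate 2. Undisturbed skin was not measured, so what release and sorting added to the level of Mcl1, Pmaip1 or Bbc3 was not tested.

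**Figure D5:**
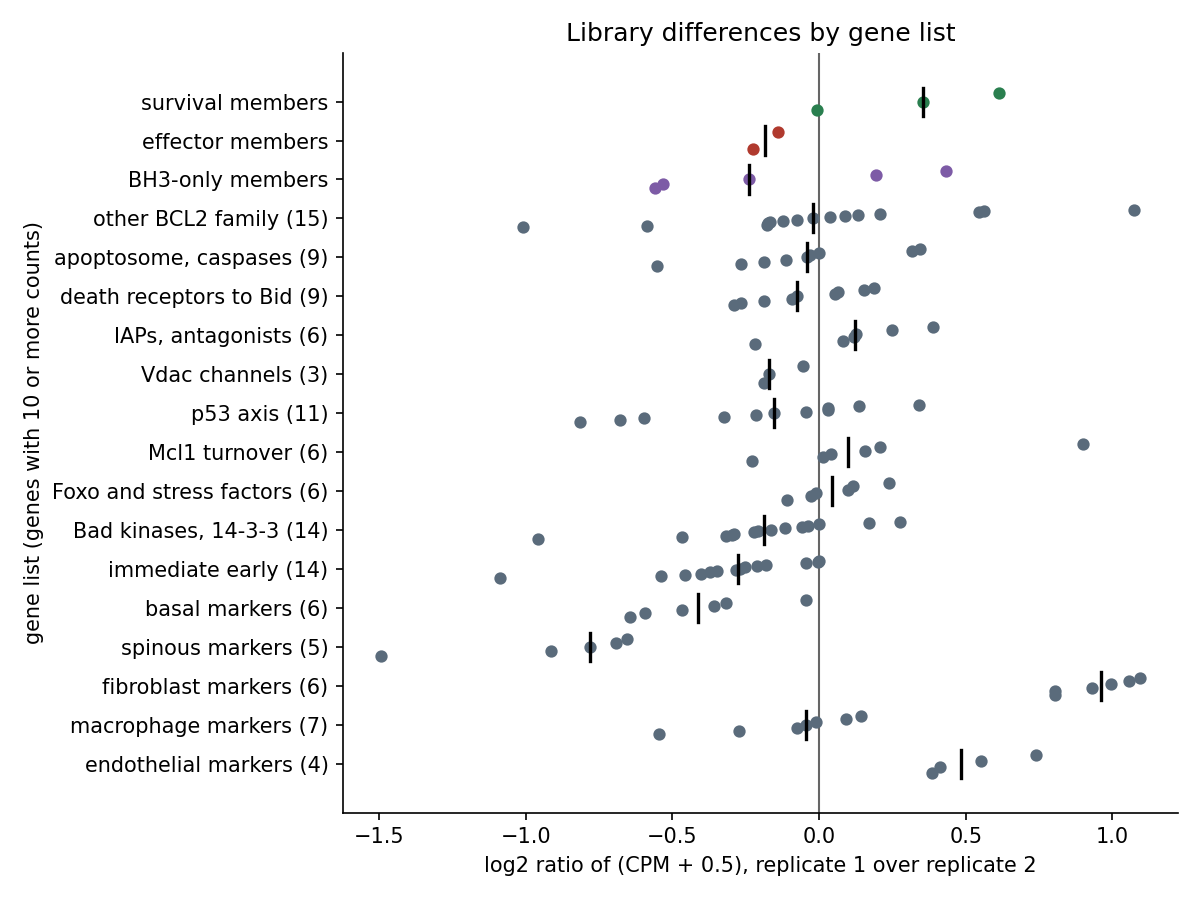
Log2 ratio of CPM + 0.5, replicate 1 over replicate 2, for the members by role, the other lists and the cell markers; each point is a gene and each bar a list median. The fibroblast markers lie at a median of 0.96 and the spinous markers at -0.78, and the members lie between -0.56 and 0.61.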

How the data were processed

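Total RNA was depleted of ribosomal RNA and sequenced as 150-base read pairs, per the labels' protocols. The authors deposited 1 raw count per gene and library with the gene length, and the submitters' processing notes name featureCounts and build mm39. No source used here states the aligner, annotation, strand setting or multi-mapping rule. Here each count was scaled to its library total (CPM), or by deposited length first (TPM). Genes with 10 or more counts in total entered the tests, and log2 ratios of lists used CPM plus 0.5. Binomial intervals and the floor of 3 counts reflect counting error alone, as these reads carry no molecular identifiers. The binomial p-values compare these libraries against counting error alone, and a permutation over 2 libraries cannot give p below 0.5. edgeR's exact test used TMM factors and an intercept-only dispersion, because 2 libraries leave no residual degrees of freedom for its quasi-likelihood test. Both steps were also run on simulated counts as a check of the code. The simulated spread was not matched to these libraries, so those runs do not show which differences edgeR's test could find here. The members, lists and tests were chosen with earlier results of these data known. All members and all genes of the other family list are named, and of each other list the highest pair and the lowest gene by TPM. BH3 stretches were searched in translated GENCODE coding sequences for leucine, any 3 codons, then glycine, alanine or serine, then aspartate and an acidic or glycine codon. For 1 member the stretch is not reported here. Coordinates are not given. Alternatives were other scalings, no count filter, other pseudocounts, each library alone, other gene lengths and another dispersion. Software was Python 3.11.15, numpy 2.4.6, pandas 2.3.3, scipy 1.17.1, R 4.3.3, edgeR 4.0.16 and DESeq2 1.42.0.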

Additional observations from a re-analysis of the deposited data

How the results depend on the processing

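No paired analysis was possible because the series has 1 group. All 10 members stayed at 1 CPM or more in both libraries with TMM factors or DESeq2 size factors, and 8 stayed at 10 CPM, with 9 in each library taken alone. The binomial test called 9 members with TMM or DESeq2 factors, 3 higher and 6 lower in replicate 1. It called 6 members without the count filter or without Rn7sk and the mitochondrial genes in the totals. The share of all tested genes called was not counted in these settings, so these member counts have no background to be read against. Leaving Rn7sk and the mitochondrial genes out of the totals turned the Mcl1 ratio to 0.0025 (log2), with an adjusted p of 0.914 by the binomial test. edgeR's exact test called 0 members in the 4 settings run, of which the 3 with tagwise dispersion called no gene at all and so bear on no member. The survival over effector sum (log2) was 1.09 to 1.33 in single libraries, 3.90 with CPM instead of TPM, 2.77 with GENCODE lengths, a choice made after seeing the data, and -2.11 without Mcl1, which itself became -0.76 with GENCODE lengths and 0.35 with CPM. BH3-only over effectors was -0.14 to -0.05 in single libraries, 1.27 with CPM and 0.51 with GENCODE lengths. The turn to -2.11 comes from leaving Mcl1 out. The moves between TPM, CPM and GENCODE lengths come from the gene lengths used. Bax has a deposited length of 940 bases and Mcl1 of 8725. Among the BH3-only genes, Bcl2l11 has 9973 deposited bases against 5036 in GENCODE, and Bbc3 has 4005 against 1814. With GENCODE lengths 5 of 9 neighbours in the order did not overlap, against 4. The common dispersion was also chosen after seeing the data.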
